A study of Mus musculus with 11 samples.

Results

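Of the 11 RNA-seq libraries of the series, the 8 from cells given an siRNA against CMTR1 are described here, 4 with CMTR1 siRNA 1 and 4 with CMTR1 siRNA 2, and the question is which genes differed between 2 siRNAs that were meant to remove the same mRNA. The members were taken by their labels alone. All libraries came from E14 mouse embryonic stem cells, a feeder-independent line, collected 36 h after transfection with siGENOME oligonucleotides by a lipid reagent. The other 3 libraries came from cells that received a non-targeting control siRNA, and their levels are given beside the results but enter no test. The study's methods state 3 biological replicates for PCR or sequencing, whereas 4 libraries carry each CMTR1 siRNA label. The labels do not say whether libraries of a group came from separate cultures, so the p-values below measure the spread between these libraries, which may be technical in part. No rescue with an siRNA-resistant CMTR1 is among these libraries, and each siRNA is a single sequence, so the effect of losing CMTR1 and the effect of the oligonucleotide itself cannot be told apart within 1 group.

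CMTR1 is the methyltransferase that adds a methyl group to the ribose of the first transcribed nucleotide of an mRNA, next to the cap. An siRNA is loaded into an Argonaute protein and directs cleavage of its fully matched target, but its guide strand also pairs, through the seed at its 5′ end, with short matches in the 3′ UTRs of other mRNAs, which then fall slightly in level, as for a microRNA. In mouse embryonic stem cells a set of genes of the germ line, for meiosis and for the piRNA pathway, is held silent or low by promoter DNA methylation and by the PRC1.6 complex, whose E2F6 and MGA-MAX subunits bind E2F sites and E-boxes.

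The libraries held between 6738478 and 8382318 reads counted in genes. Levels are given as CPM, the reads of a gene scaled by all reads counted in genes in that library. Differences are log2 fold changes of siRNA 2 minus siRNA 1, so a positive value means a higher level with siRNA 2, and a gene is said to be called where its p from edgeR's quasi-likelihood test, adjusted by the method of Benjamini and Hochberg over all genes tested, was at most 0.05. The 10 stem cell markers summed to between 1763 and 1951 CPM with siRNA 1 and between 1859 and 1943 CPM with siRNA 2, and the lowest of them stood at 42.7 CPM in its median library. The 8 fibroblast markers summed to between 29.3 and 32.8 CPM with siRNA 1 and between 37.6 and 42.9 CPM with siRNA 2, and the fibroblast protease gene Fap was at 0 in all but 1 library. In siRNA 2 replicates 1 and 2 there were 0.755 and 0.734 reads outside genes per counted read, against 0.905 in replicate 3 and 0.788 to 0.872 with siRNA 1, and no such value is listed for siRNA 2 replicate 4.

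Cmtr1 itself (chr17:29660595-29705979, plus strand, GRCm38) stood at 21.1, 21.3, 16.2 and 18 CPM with siRNA 1 and at 15.6, 16.8, 16.4 and 19.5 CPM with siRNA 2. The control libraries held 21.3, 21.7 and 17.9 CPM, so the ranges of all 3 groups overlapped, and Cmtr1 mRNA does not separate the libraries labelled with either siRNA from the control. The groups are therefore named by their labels throughout. Between the siRNAs the log2 fold change of Cmtr1 was -0.16, with a 95% interval from -0.36 to 0.04 (edgeR adjusted p = 0.397), and a two-sided exact permutation test of the log2 CPM of the 4 and 4 libraries gave p = 0.229, where the smallest p that test allows is 0.0286. These values rest on 110 to 176 reads per library. Of the other genes of cap synthesis and cap binding, such as Rnmt, Rngtt, Cmtr2, Ncbp1 and Eif4e, none passed the test: 0 of the 15 tested on that list, which includes Cmtr1, were called, and their log2 fold changes lay between -0.16 and 0.17.

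Among 16073 genes above 1 CPM in at least 4 of the 11 libraries, 1113 were called between the siRNAs, which is 6.92% of those tested. With siRNA 2, 672 genes (4.18%) were higher and 441 (2.74%) lower. The differences were small for most genes, with a median size of 0.309 on the log2 scale among called genes, and the larger ones lay on the higher side: 60 of the higher genes and 12 of the lower genes differed by at least 2-fold. The median log2 fold change over all genes tested was 0.0018. The 4 libraries of one siRNA and the 4 of the other did not overlap in CPM for 11.8% of all genes tested. The count of called genes depended on single libraries: it was 657 without siRNA 1 replicate 1, 639 without siRNA 1 replicate 2 and 650 without siRNA 2 replicate 1, and 420 genes, 285 higher and 135 lower, were called with each of the 8 libraries left out in turn.

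**Figure D1:**
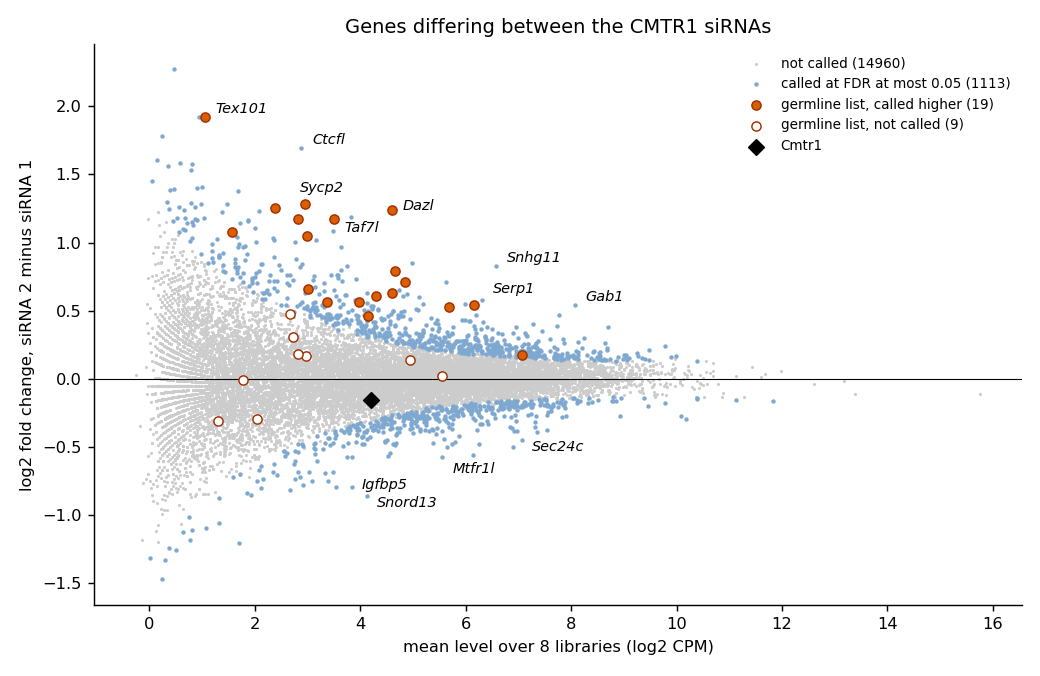
Log2 fold change of siRNA 2 minus siRNA 1 (vertical axis) against the mean level over the 8 libraries in log2 CPM (horizontal axis), 1 point per gene for 16073 genes. Blue points are the 1113 called genes, and the filled orange points, the 19 called genes of the germline list, lie above 0 without exception, while Cmtr1 (black diamond) lies among the genes not called.

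Genes of the germ line were the group that differed most often among the lists examined. The lists were written with earlier results of these data known, so their shares are a description and no independent evidence. Of 28 germline genes tested, 19 were called and each of the 19 was higher with siRNA 2, which is 67.9% of the list beside 4.18% of all genes, and the median log2 fold change of the list was 0.56 beside 0.0018 for all genes. As a mean of log2(CPM + 1) over the list, the siRNA 2 libraries stood at 3.90 to 4.01, the siRNA 1 libraries at 3.35 to 3.48, and the control libraries at 3.34 to 3.37. The siRNA 1 libraries thus lay within or slightly above the control range and the siRNA 2 libraries were apart from both. Of the 19 calls, 16 held with each of the 8 libraries left out in turn. The others were Sycp3 (adjusted p = 0.0607 by edgeR without siRNA 2 replicate 4), Tex19.2 (edgeR adjusted p = 0.0594 without siRNA 2 replicate 1) and Stag3, which lost its call without siRNA 1 replicate 1, 3 or 4 or siRNA 2 replicate 2, 3 or 4, with edgeR adjusted p up to 0.192.

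The germline gene with the lowest p was Dazl (chr17:50279395-50293636, minus strand), an RNA-binding protein that germ cells need for translation of their mRNAs. It stood at 36.4, 34.1, 32.6 and 31.1 CPM with siRNA 2 and at 12.8, 15.8, 15.3 and 12.6 CPM with siRNA 1. Every siRNA 2 library was thus above every siRNA 1 library, and the control libraries, at 13.6, 11.1 and 11.4 CPM, lay with siRNA 1. The log2 fold change was 1.24 ± 0.09 (SE, n = 4 and 4, edgeR adjusted p = 1.01e-12).

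Among the called members are genes for parts of the synaptonemal complex, which holds homologous chromosomes together in meiosis. Sycp1, its transverse filament, was at 8.81, 6.56, 7.01 and 5.43 CPM with siRNA 2 against 4.01, 2.62, 2.25 and 2.81 CPM with siRNA 1 (log2 fold change 1.25 ± 0.19 SE). Sycp2, of its lateral element, was at 12.5, 8.47, 10.4 and 11.1 CPM against 4.45, 4.74, 4.09 and 4.01 CPM (1.28 ± 0.15 SE). For both genes all siRNA 2 libraries lay above all siRNA 1 and all control libraries, the controls reaching 4.17 CPM for Sycp1 and 4.44 CPM for Sycp2. Sycp3 was higher by 0.56, with siRNA 2 replicate 3 at 9.17 CPM inside the siRNA 1 range of 7.23 to 9.38 CPM. Hormad1, which marks unpaired chromosome axes, rose from 19.6 to 24.7 CPM with siRNA 1 to 29.6 to 40.8 CPM with siRNA 2 (0.71 ± 0.09 SE). The meiotic cohesin subunit Smc1b was higher by 0.60, whereas the other meiotic cohesin subunit on the list, Stag3, was higher by only 0.17, with siRNA 1 at 114 to 136 CPM, siRNA 2 at 131 to 154 CPM and the control at 134 to 144 CPM.

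Other called members encode factors of the piRNA pathway, which guards the germ line against transposons, although Tdrkh, a member with a role in the same pathway, was not called. Piwil2, a PIWI protein that binds piRNAs, stood at 65.3, 65.0, 52.3 and 57.4 CPM with siRNA 2 and at 40.4, 41.8, 42.8 and 41.4 CPM with siRNA 1 (log2 fold change 0.53 ± 0.07 SE). The scaffold Tdrd1 was at 11.1, 9.54, 12.1 and 8.64 CPM against 5.05, 4.49, 5.68 and 4.68 CPM (1.05 ± 0.15 SE). The ranges of the siRNAs did not overlap for either gene, and the control libraries lay at 35.7 to 37.4 CPM for Piwil2 and 4.44 to 5.21 CPM for Tdrd1. Mael, Mov10l1 and Ddx4, further factors of this pathway, were higher by 0.79, 0.63 and 0.56.

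Taf7l, a germ-cell paralog of a general transcription factor subunit, stood at 15.6, 15.6, 13.9 and 15.4 CPM with siRNA 2 against 5.64, 6.11, 6.87 and 8.15 CPM with siRNA 1 (log2 fold change 1.17 ± 0.13 SE). Slc25a31, the testis form of the mitochondrial ADP/ATP carrier, was higher by the same 1.17, and Tex101, a germ-cell surface protein, by 1.92 from at most 1.06 CPM in any siRNA 1 library. At such levels a gene can pass the limit of 1 CPM in 4 libraries through its siRNA 2 libraries alone. With above 1 CPM required in all 8 siRNA libraries, 18 of the 19 germline calls remained. Tex19.1, by far the more abundant of a pair of paralogs at 52.2 to 61.5 CPM with siRNA 1, was higher by 0.54. The remaining called genes of the list were Rhox13, Syce1 and Tex19.2, at 0.66, 0.46 and 1.08. The 9 members that were not called included Rhox5, Rhox6 and Rhox9, with log2 fold changes of 0.02, -0.30 and -0.01, as well as Dppa3 (0.17), Prdm1 (0.31), Nanos3 (-0.31), Tex14 (0.13), Dnd1 (0.18) and Tdrkh (0.48).

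**Figure D2:**
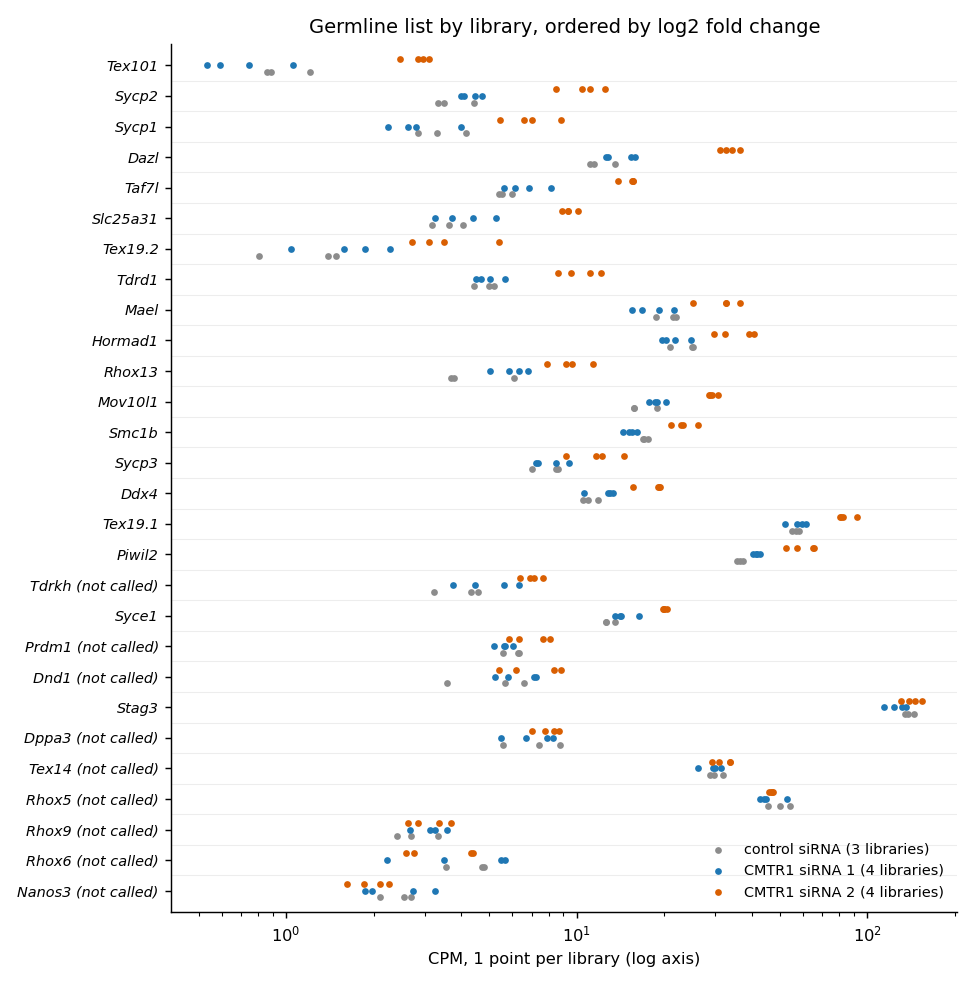
CPM on a log axis (horizontal) for the 28 germline genes tested (vertical, ordered by log2 fold change), 1 point per library: control siRNA in grey, siRNA 1 in blue and siRNA 2 in orange. In the upper rows the 4 siRNA 2 points lie to the right of the siRNA 1 and control points, which lie together, for instance Dazl at 31.1 to 36.4 CPM against 11.1 to 15.8 CPM, and in the lowest rows the 3 colours mix.

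A second list of 53 germline genes, put together after the values had been seen and so no independent evidence, had 44 genes tested, of which 19 were called, all higher (43.2% beside 4.18%), with a median of 0.42. Ctcfl, the germ-cell paralog of the insulator protein CTCF, was at 11.8, 9.66, 12.3 and 9.63 CPM with siRNA 2 against 4.01, 2.87, 2.51 and 4.01 CPM with siRNA 1 (1.69 ± 0.17 SE). Fkbp6, needed for piRNA production, stood at 42.9, 38.9, 39.4 and 38.9 CPM against 19.7, 21.9, 22.7 and 24.3 CPM (0.85 ± 0.08 SE). The control libraries lay in or near the siRNA 1 range for both genes, at 2.84 to 3.43 CPM for Ctcfl and 18.8 to 22.7 CPM for Fkbp6. The serine protease gene Prss50, Scml2, a Polycomb-related protein of male germ cells, and the transcription factor gene Sohlh2 were higher by 1.19, 0.97 and 0.71, and Tdrd9, Brdt, Boll, Hormad2 and Tex15 by between 0.62 and 1.41. Brdt lost its call without siRNA 1 replicate 2 or siRNA 2 replicate 1 (edgeR adjusted p up to 0.0715) and Boll without siRNA 2 replicate 2 (0.0553). Members of this list that were not called included Msh4, Msh5, Rec8 and Stra8, at -0.04, -0.31, -0.05 and 0.25. Of 13 testis-biased copies of ubiquitous genes, also listed after the values had been seen, 6 were called, all higher (46.2% beside 4.18%). Of the 6, Taf7l and Slc25a31 are also among the called genes of the first germline list, and D1Pas1 among those of the second. Rpl10l rose by 0.49 among 51 large ribosomal subunit genes with a median of -0.03. Tuba3a rose by 0.36 among 65 tubulin and microtubule genes, whose median was -0.03. Of these 65, 4 were higher (6.15% beside 4.18%) and 5 lower (7.69% beside 2.74%). Reads without a unique alignment, 787556 to 974693 per library in the 10 that list them, were listed apart from the genes. Reads that fit several near-identical copies could thus have been dropped by the counting, so single-copy values of such families are uncertain.

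Promoter windows of 300 bases, from 250 before to 50 after the start of transcription (RefSeq, GRCm38.p6), were available for 18 of the 19 called germline genes. Of these, 10 (55.6%) held the E-box CACGTG, which reads the same on both strands, against 1125 of 10851 windows of all genes tested (10.4%), 0 of the 5 windows of uncalled list members and 55 of 482 windows of all genes called higher (11.4%). In the second germline list the contrast was smaller, with the E-box in 5 of 15 windows of called genes (33.3%) and in 4 of 23 windows of genes not called (17.4%). The list and this motif were chosen with earlier results known, and a match is only a description of the letters in the window. The windows of Hormad1 and Sycp3, which hold 2 E-boxes each, and of Sycp1, the gene with the largest log2 fold change among those whose window holds one, are shown as examples of windows with the motif, which the other 8 windows of called genes do not hold. They cover chr3:95559427-95559726 (plus strand) for Hormad1, chr10:88459337-88459636 (plus strand) for Sycp3 and chr3:102936051-102936350 (minus strand) for Sycp1, and capitals mark the E-box.
Hormad1: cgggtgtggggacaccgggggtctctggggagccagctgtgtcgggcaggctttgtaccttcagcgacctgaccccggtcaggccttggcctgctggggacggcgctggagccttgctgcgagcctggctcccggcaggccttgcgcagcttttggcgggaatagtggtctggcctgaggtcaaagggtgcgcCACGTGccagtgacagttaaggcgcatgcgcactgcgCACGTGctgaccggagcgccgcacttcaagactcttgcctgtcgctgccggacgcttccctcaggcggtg
Sycp3: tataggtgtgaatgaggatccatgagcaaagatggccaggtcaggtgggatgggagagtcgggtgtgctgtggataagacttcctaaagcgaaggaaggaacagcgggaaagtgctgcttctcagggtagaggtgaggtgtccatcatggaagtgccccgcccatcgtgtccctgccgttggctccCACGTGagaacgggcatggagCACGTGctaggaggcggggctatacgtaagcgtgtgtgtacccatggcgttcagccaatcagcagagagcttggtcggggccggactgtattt
Sycp1: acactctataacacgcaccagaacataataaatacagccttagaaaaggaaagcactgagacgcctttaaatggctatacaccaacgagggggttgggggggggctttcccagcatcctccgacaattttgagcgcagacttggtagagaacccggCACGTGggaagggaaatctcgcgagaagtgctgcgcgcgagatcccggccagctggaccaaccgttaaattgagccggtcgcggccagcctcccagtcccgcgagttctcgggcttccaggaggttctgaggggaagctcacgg

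None of the repressors of germline genes was called lower with siRNA 2. Of 23 repressor genes, from a list also put together after the values had been seen, 5 were called, all slightly higher (21.7% beside 4.18%): E2f6 by 0.31, the E3 ligase gene Rnf2 by 0.26, Pcgf6 by 0.25, Hdac2 by 0.22 and Kdm5c by 0.16. The calls of Pcgf6, Hdac2 and Kdm5c were lost without siRNA 1 replicate 1, 2 or 4 or siRNA 2 replicate 1, 2 or 4, depending on the gene, with edgeR adjusted p up to 0.0919, so 2 of the 5 held throughout. The E2f6 libraries lay at 56.4, 58, 49.1 and 48.3 CPM with siRNA 2, above all 4 siRNA 1 libraries at 41.4 to 44.6 CPM. The DNA methyltransferase Dnmt1 and its partner Uhrf1 had log2 fold changes of -0.02 and -0.01 and were not called, nor were Mga, Max, L3mbtl2 or Setdb1. None of the 16 genes of the DNA methylation and TET list was called.

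Genes of the 2-cell-like state, a transient state of stem cell cultures that resembles the early embryo, also lay on the higher side. Of 10 tested, 4 were called and all 4 were higher (40.0% beside 4.18%), with a median of 0.61 and every member above 0. Members near 1 CPM can pass the limit on CPM mostly through their higher group. Zfp352 was at 0.45 to 1.19 CPM with siRNA 1 and at 0.84 to 1.99 CPM with siRNA 2. With above 1 CPM required in all 8 siRNA libraries, the list median was 0.59. Zscan4d, which acts in telomere maintenance of these cells, was at 11.1, 10.3, 10.5 and 9.51 CPM with siRNA 2 against 5.79, 7.35, 7 and 4.68 CPM with siRNA 1 (0.72 ± 0.14 SE). Zscan4a was higher by 0.76, Zscan4c by 0.59 and the deubiquitinase gene Usp17lc by 0.89. The Zscan4 genes lie in a cluster and are near-identical copies, so reads can be shared or lost among them and their calls are not independent. The calls of Zscan4c and Usp17lc did not hold with every library left out: the edgeR adjusted p of Zscan4c was 0.0663 without siRNA 1 replicate 1, 0.0921 without siRNA 1 replicate 4 and 0.0678 without siRNA 2 replicate 4, and that of Usp17lc rose above 0.05 without siRNA 1 replicate 1, 2 or 3 or siRNA 2 replicate 1 or 2, up to 0.157.

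Naive pluripotency genes differed little. Of 19 naive pluripotency factors, 1 was called (5.26% beside 6.92% of all genes). This was Esrrb, lower with siRNA 2 at 96.9, 95.9, 116 and 105 CPM against 112, 117, 130 and 118 CPM with siRNA 1 (-0.21 ± 0.06 SE). One siRNA 2 library lay inside the siRNA 1 range, and the call was lost without siRNA 1 replicate 3, siRNA 2 replicate 1 or siRNA 2 replicate 2, with edgeR adjusted p between 0.0877 and 0.0959. Nanog, Zfp42 and Klf4 were not called, at 0.02, 0.01 and -0.21. The median of the naive list was 0.01 between the siRNAs, and against the mean of the control libraries it was -0.37 with siRNA 1 and -0.38 with siRNA 2. Of 19 core and general pluripotency markers, 2 were called, Rex2 and Lin28a, and both were higher (10.5% beside 4.18%). The median of that list was 0.05, with 14 of 19 above 0, and neither call held with each library left out in turn.

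**Figure D3:**
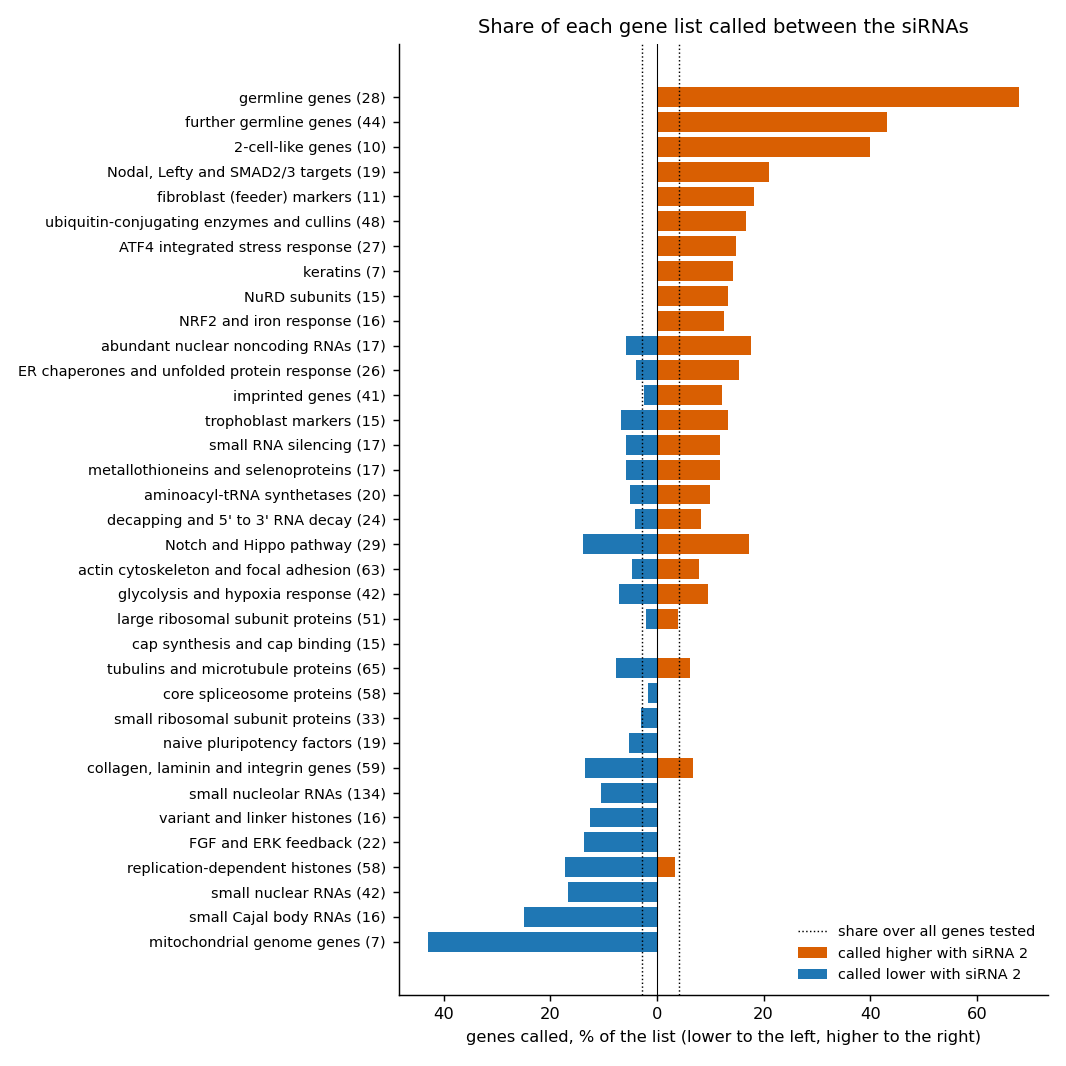
Share of each gene list called higher (orange, to the right) or lower (blue, to the left) with siRNA 2, in percent of the list's tested genes, whose number is in parentheses. The dotted lines mark the shares over all genes tested, 4.18% higher and 2.74% lower, and the germline bar at 67.9% is the longest, while the cap list has no bar.

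For another 4 genes higher with siRNA 2, all siRNA 1 libraries lay below all control libraries. Gab1 (chr8:80764438-80880519, minus strand), an adaptor of receptor tyrosine kinases, stood at 203, 212, 233 and 227 CPM with siRNA 1 and at 333, 332, 296 and 314 CPM with siRNA 2. The control libraries held 283, 297 and 286 CPM, so all siRNA 1 libraries were below the control, and 3 of the 4 siRNA 2 libraries were above its highest value. Serp1, a small protein of the endoplasmic reticulum, stood at 56.4, 64.7, 65.8 and 66.4 CPM with siRNA 1, at 96.7, 97.3, 85.7 and 99.3 CPM with siRNA 2 and at 89.8, 102 and 98.8 CPM in the control. Its log2 ratio of mean CPM + 0.5 to the control was -0.61 with siRNA 1 and -0.03 with siRNA 2. Cyclin G1 (Ccng1), a p53 target, was at 182, 178, 190 and 180 CPM with siRNA 1 against 273, 247, 238 and 253 CPM with siRNA 2, with the control at 220 to 237 CPM, so that siRNA 1 lay below and siRNA 2 above the control. Ago1, the Argonaute protein of small RNA silencing, was at 138, 134, 124 and 136 CPM against 176, 181, 175 and 170 CPM, with the control at 168 to 186 CPM. The log2 fold changes were 0.54 ± 0.05 for Gab1, 0.58 ± 0.06 for Serp1, 0.47 ± 0.05 for Ccng1 and 0.40 ± 0.05 for Ago1 (SE, n = 4 and 4). The largest edgeR adjusted p among these, for Ago1, was 2.46e-07.

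Among the genes lower with siRNA 2, Trak2, an adaptor that ties mitochondria to motor proteins, stood at 60.9, 65.5, 64.4 and 65.4 CPM with siRNA 2 and at 86.2, 79.5, 83.1 and 84.1 CPM with siRNA 1, which was within or near the control range of 81.2 to 88.3 CPM. Tmf1, a Golgi protein, was at 41.1, 41.6, 46.2 and 47.9 CPM against 62.3, 60.1, 63.0 and 61.6 CPM, with the control at 56.4 to 61.3 CPM. Btbd11 was at 34.5, 32.3, 37.5 and 33.8 CPM against 50.8, 48.9, 49.8 and 42.4 CPM, with the control at 43.4 to 46.6 CPM. For these 3 genes the siRNA 2 libraries were the ones below both other groups. Sec24c, which packs cargo into COPII vesicles, had the lowest p of all lower genes and showed the same order, at 107, 113, 117 and 114 CPM with siRNA 2, 159, 157, 152 and 150 CPM with siRNA 1 and 141 to 149 CPM in the control (-0.45 ± 0.05 SE, edgeR adjusted p = 2.57e-08). Vcan, a proteoglycan of the extracellular matrix, showed another order: it was at 155, 151, 123.1 and 129 CPM with siRNA 1, and siRNA 2, at 92.5 to 108 CPM, lay with the control at 87.8 to 99.6 CPM.

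**Figure D4:**
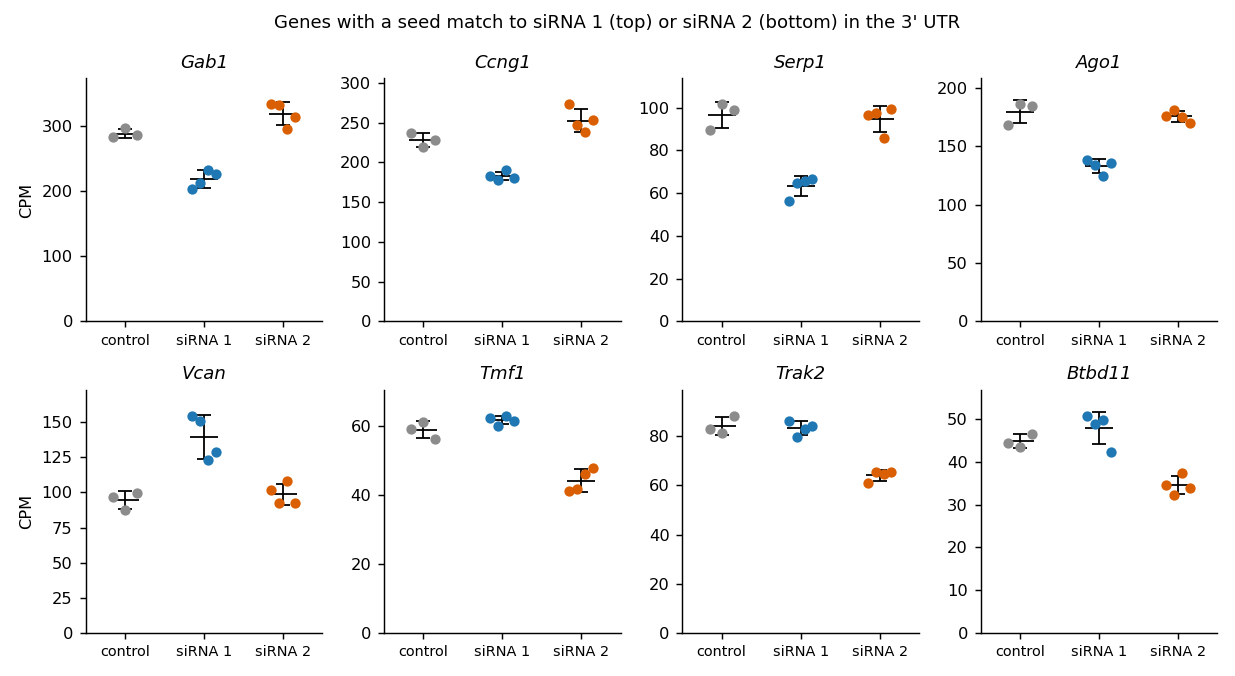
CPM (vertical axes, starting at 0) of 4 genes with a 3′ UTR match to the siRNA 1 seed (top row) and 4 with a match to the siRNA 2 seed (bottom row), 1 point per library for control siRNA, siRNA 1 and siRNA 2, with bars for the mean and SD. In the top row the siRNA 1 points are the low ones, for instance Serp1 at 56.4 to 66.4 CPM against 85.7 to 102 CPM in the other groups, and in the bottom row the siRNA 2 points are low for Tmf1, Trak2 and Btbd11, while for Vcan the siRNA 1 points are high.

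Apart from Sec24c, which holds none, these genes were shown because their 3′ UTRs hold matches to a seed of the siRNAs. That they hold matches is therefore no result. The seed match is the 7-letter DNA word that pairs with bases 2 to 8 of the guide strand, which was taken to be the reverse complement of the target sequence listed in the study's methods: ATGAATT for siRNA 1 and AAGATGA for siRNA 2. The words were looked for on the transcribed strand only, in the longest annotated 3′ UTR of each gene (GENCODE M21, GRCm38). The first match in 4 genes lower with siRNA 1 and in 4 genes lower with siRNA 2 is shown with its surroundings, the match in capitals.
Gab1, siRNA 1 match: catagtgtgattttgaATGAATTaggcagg
Ccng1, siRNA 1 match: ctgtcttaataactggATGAATTatcactc
Serp1, siRNA 1 match: gagcatttggaatgaaATGAATTtactgat
Ago1, siRNA 1 match: gtctgcctgtgtgataATGAATTctctgca
Vcan, siRNA 2 match: cgatggccatgtaaatAAGATGAtttaatg
Tmf1, siRNA 2 match: gtgcttccttaatggcAAGATGAacatcca
Trak2, siRNA 2 match: tgcatatttttaatgaAAGATGAcatgtat
Btbd11, siRNA 2 match: tgttagattatttttaAAGATGAaaagtgt

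Gab1, Serp1 and Ago1 hold 2 such matches each and Ccng1 holds 1. Ctcfl, a germline gene given above, holds 4 siRNA 1 matches, more than any of these. Its siRNA 1 libraries lay around the control range, not below it, and its siRNA 2 libraries lay above both groups. The examples shown therefore do not stand for all genes with a match. Vcan, Tmf1 and Trak2 hold 2 matches to the siRNA 2 seed each, and Btbd11 holds 1. Ago1 was chosen after its values had been seen, as a called member of the small RNA silencing list, and the others are among the 12 higher and 12 lower genes with the lowest p. A second form of the match pairs with bases 2 to 7 and has an A opposite base 1, which is TGAATTA for siRNA 1 and AGATGAA for siRNA 2. Of those 12 higher genes, 4 hold the siRNA 1 match (Gab1, Ctcfl, Ccng1 and Serp1) and 2 the siRNA 2 match (Snhg11 and Ctcfl), but with either form counted the numbers are 5 and 5, since Gab1 and Serp1, for instance, hold AGATGAA. Of the 12 lower genes, 5 hold the siRNA 2 match (Vcan, Kif5c, Tmf1, Trak2 and Btbd11) and 1 the siRNA 1 match (Kif5c), and with either form counted the numbers are 7 and 1. Matches are common in any case, so these counts are to be read against the shares over all genes.

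Over all 13083 tested genes with an annotated 3′ UTR of at least 30 bases, 1812 (13.8%) held the siRNA 1 seed match. It was held by 187 of the 615 genes called higher with siRNA 2, that is lower with siRNA 1 (30.4%), and by 37 of the 392 called lower (9.44%). Longer UTRs hold more words of any kind, and the lengths of their UTRs alone would give 16.7% of the higher and 14.4% of the lower genes. These shares from UTR length take no account of the base composition of the UTRs. The siRNA 2 seed match was held by 2014 genes (15.4%), by 101 of the 392 called lower with siRNA 2 (25.8%, with 15.9% from UTR length) and by 81 of the 615 called higher (13.2%, with 18.3% from UTR length). Each seed match was thus more frequent among the genes lower with its own siRNA and less frequent among the genes higher with it, than over all genes. The share of the genes with a match that were called in the matching direction was 10.3% for siRNA 1 and 5.02% for siRNA 2, beside 4.18% and 2.74% of all genes.

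The shift was small for the average gene. The median log2 fold change was 0.05 for 1254 genes with the siRNA 1 match only, -0.02 for 1456 genes with the siRNA 2 match only, 0.02 for 558 genes with both and 0.00 for 9815 genes with neither. Among genes with the siRNA 1 match only 65.2% lay above 0, and among genes with the siRNA 2 match only 43.1% did. Against the control mean, the genes with the siRNA 1 match had a median log2 ratio of 0.00 with siRNA 1 and 0.05 with siRNA 2, beside 0.03 and 0.03 for genes without it. When all 14299 7-letter words found in at least 200 of these UTRs were ranked by the median log2 fold change of the genes that hold them, after the median of each of 10 bins of UTR length had been removed, the highest of all was TGAATTA, the siRNA 1 match shifted by 1 base to end in an A opposite guide base 1, at 0.04 (1578 genes), and ATGAATT was the 5th highest at 0.03. Other words near the top, such as GAATTAT and AGAATTT, share letters with these, whereas TCCGGAT and AACGTAA, the 2nd and 3rd highest, do not hold either form. The 10 highest words held 0 to 4 G or C of 7 letters, and ACAATAG, which holds neither form, was the 7th highest at 0.03. The words at the low end were of another kind. The 10 lowest held 4 to 7 G or C of 7 letters and lay between -0.05 and -0.04, and AAGATGA was the 136th lowest at -0.03. Base composition was not removed in this ranking, and its part in the ranks was not tested.

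**Figure D5:**
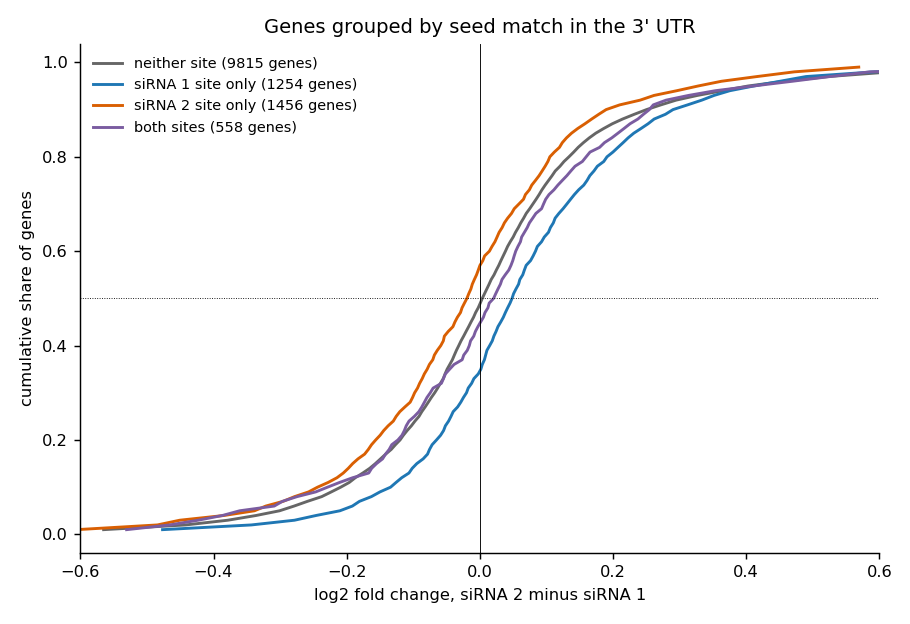
Cumulative share of genes (vertical axis) against log2 fold change of siRNA 2 minus siRNA 1 (horizontal axis) for genes with a 3′ UTR match to the seed of siRNA 1 only, siRNA 2 only, both or neither. The curve of the 1254 genes with the siRNA 1 match lies to the right of the 9815 genes with neither (medians 0.05 and 0.00) and the curve of the 1456 genes with the siRNA 2 match to the left (median -0.02).

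Among the 19 called germline genes, 2 held the siRNA 1 match and 2 the siRNA 2 match, beside 13.8% and 15.4% of all genes. Over the whole set of called genes the control mean lay between the means of both siRNAs for 443 of the 672 higher genes, below both for 179 and above both for 50. Of the higher genes with the siRNA 1 match, siRNA 1 was the farther from the control in 90 of 187 (48.1%), and of those without it in 116 of 428 (27.1%). Of the genes lower with siRNA 2, siRNA 2 was the farther from the control in 58 of the 101 with its match (57.4%) and in 167 of the 291 without it (57.4%), so for siRNA 2 the match went with no such difference.

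Lists of signalling genes had medians near 0 with single members called. In the Nodal list 4 of 19 genes were called, all higher with siRNA 2 (21.1% beside 4.18%), with a list median of 0.01. Lefty2, a secreted Nodal antagonist, stood at 12.5, 12.1, 14.9 and 16 CPM with siRNA 1, at 19.5, 18, 22.2 and 22.2 CPM with siRNA 2 and at 22.9, 19.24 and 27.2 CPM in the control (0.56 ± 0.10 SE). The siRNA 1 libraries were the low ones, below all siRNA 2 and control libraries. Lefty1 lost its call without siRNA 1 replicate 1 or 2 or siRNA 2 replicate 3 or 4, with edgeR adjusted p up to 0.136. Lefty1 was higher by 0.29 and the SMAD co-repressor Skil by 0.20. In the FGF list 3 of 22 were lower (13.6% beside 2.74%) and none higher: the FGF antagonist Il17rd (-0.38), the feedback inhibitor Spry1 (-0.41) and the receptor Fgfr1 (-0.19). Spry1 lost its call without siRNA 1 replicate 4 or siRNA 2 replicate 2 (edgeR adjusted p up to 0.0974) and Fgfr1 without siRNA 1 replicate 1 or 2 or siRNA 2 replicate 1 or 4 (up to 0.146). Il17rd was at 144, 143, 126 and 132 CPM with siRNA 1, above the siRNA 2 range of 98.7 to 109 CPM and the control range of 106 to 112 CPM.

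The Notch and Hippo list held calls in both directions, 5 higher and 4 lower of 29 (31.0% beside 6.92% of all genes). Of these 9 calls, 3 held with each library left out in turn. The Hippo members were themselves split, with Tead3 and Wwtr1 called higher and Tead1 lower. The receptors Notch1, Notch2 and Notch3 were all lower with siRNA 2, at -0.19, -0.20 and -0.38. Notch3 stood at 241, 215, 194 and 196 CPM with siRNA 1 against 158, 160, 183 and 150 CPM with siRNA 2, with the control at 162 to 190 CPM. Of the 3 receptors, Notch3 kept its call with each library left out, whereas Notch1 and Notch2 lost theirs without siRNA 1 replicate 1 or 2 or siRNA 2 replicate 1, 2 or 4, with edgeR adjusted p up to 0.199 and 0.154. On the higher side were the Notch-linked factor Hes6 (0.45), the Hippo effector Yap1 (0.21) and its target Ccn2 (0.21), whose call was lost without siRNA 1 replicate 1 or 2 (edgeR adjusted p up to 0.0818). Yap1 holds 3 siRNA 1 seed matches and lay at 174 to 190 CPM with siRNA 1, against 199 to 214 CPM with siRNA 2 and 205 to 214 CPM in the control. Notch2 holds 2 siRNA 2 seed matches, but its siRNA 2 libraries, at 184 to 225 CPM, overlapped the control at 185 to 209 CPM.

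Matrix genes were called in both directions, 4 higher and 8 lower of 59 (20.3% beside 6.92%). Of these 12 calls, 7 held with each library left out in turn. Lower with siRNA 2 were, among others, fibronectin (Fn1) at -0.28, perlecan (Hspg2) at -0.29 and nidogen 2 (Nid2) at -0.28. Fn1 was at 898, 953, 1136 and 946 CPM with siRNA 2 and at 1294, 1207, 1107 and 1155 CPM with siRNA 1, so siRNA 2 replicate 3 lay inside the siRNA 1 range. Fibrillar collagen Col1a1 was instead higher, at 14.2, 14.2, 12.8 and 16.7 CPM with siRNA 2 against 8.46, 9.22, 8.59 and 7.89 CPM with siRNA 1 (0.76 ± 0.12 SE), and the control was at 8.25 to 9.42 CPM. The laminin gene Lama3 and the integrin gene Itgb1 were higher as well, by 0.65 and 0.15, the latter call not holding with each library left out. The proteoglycan decorin (Dcn) was higher by 0.99. Col1a1 and Dcn are the 2 called genes among 11 fibroblast markers tested (18.2% beside 4.18%). The sum of the 8 fibroblast markers given above was also higher with siRNA 2, but it includes Col1a1 and Dcn and so is no separate result. Of its other members, Col1a2 and Thy1 lay higher in the mean with siRNA 2, and Pdgfrb and Col3a1 lower. The part of fibroblast markers in these results was not tested.

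Lists of ubiquitin-conjugating enzymes and cullins, endoplasmic reticulum chaperones and targets of ATF4 had more higher than lower calls. Their list medians were at most 0.11. Over all genes, higher calls also outnumbered lower ones. Other lists of folding and turnover had few calls. Higher were 1 of 29 heat shock protein genes (3.45% beside 4.18%), 3 of 47 proteasome genes (6.38%) and none of 8 TRiC chaperonin genes. Of 43 lysosome and autophagy genes, 1 was lower (2.33% beside 2.74%) and none higher. Of 48 ubiquitin-conjugating enzyme and cullin genes 8 were called, all higher (16.7% beside 4.18%), among them the cullin scaffolds Cul2, Cul3, Cul4b and Cul5 at 0.16 to 0.20, but only 1 of the 8 calls held with each library left out in turn. Of 26 endoplasmic reticulum chaperone genes 4 were higher (15.4% beside 4.18%) and 1 lower (3.85% beside 2.74%), the higher ones being the disulfide isomerase Pdia3 (0.19), Hspa5, the chaperone BiP (0.15), and its partners Dnajb11 (0.24) and Dnajc3 (0.22). The calls of Hspa5 and Dnajc3 were each lost on leaving out any of 6 of the 8 libraries, with edgeR adjusted p up to 0.2 and 0.176. Of 27 targets of the stress factor ATF4, 4 were higher (14.8% beside 4.18%) and none lower, with a median of 0.11, and 1 of the 4 calls, Cth, held with each library left out in turn. Cth, which makes cysteine, was at 32.2, 36.0, 42.9 and 39.3 CPM with siRNA 1 against 47.2, 43.9, 47.2 and 48.7 CPM with siRNA 2 and 44.8 to 51.6 CPM in the control. Against the control mean the ATF4 list had a median log2 ratio of -0.23 with siRNA 1 and -0.09 with siRNA 2. The transferrin receptor Tfrc, with 2 siRNA 1 seed matches, was higher by 0.26 with siRNA 2.

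Lists of translation, splicing and cell cycle genes had few calls. Of 51 large and 33 small ribosomal subunit genes, 3 (5.88%) and 1 (3.03%) were called, beside 6.92% of all genes, with medians of -0.03 for both lists. Their medians against the control mean were -0.07 with siRNA 1 for both lists, and -0.09 and -0.08 with siRNA 2. Of 54 translation initiation factors 4 were called (7.41%), and of 20 aminoacyl-tRNA synthetases 3 (15%), in both directions. Of 58 core spliceosome genes 1 was called (1.72%), of 40 genes of SR proteins and hnRNPs none, and of 65 cyclin and mitotic genes 3 (4.62%). A level list median does not show that single members did not differ.

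Several classes of short noncoding RNA, taken as lists by their annotation after the values had been seen, had lower calls and no higher ones. Of 134 small nucleolar RNAs tested 14 were called, all lower (10.4% beside 2.74%), with a median of -0.18, and 5 of the 14 calls held with each library left out in turn. Snord13, which guides acetylation of 18S rRNA, was at 15.3, 10.6, 14.6 and 8.89 CPM with siRNA 2 against 26, 23.2, 21 and 18.8 CPM with siRNA 1 (-0.86 ± 0.12 SE). Snora73b was lower as well, at -0.39. Of 16 small Cajal body RNAs 4 were lower (25.0% beside 2.74%), with Scarna2 at -0.28 the 1 call that held with each library left out. Of 42 small nuclear RNAs 7 were lower (16.7% beside 2.74%) and 2 of these calls held, but 19 of the 42 lay above 0 and the median was -0.04. The mean log2(CPM + 1) over the small nucleolar RNAs was 2.04, 1.98, 2.17 and 2.06 with siRNA 2, 2.23, 2.29, 2.13 and 2.18 with siRNA 1 and 2.16 to 2.33 in the control. The siRNA 2 library with the highest value, replicate 3, had the most reads outside genes per counted read among replicates 1 to 3, 0.905. Replicate 2, with the lowest value, had the fewest among them, 0.734. For replicate 4 no such value is listed. After removal of the trend of log2 fold change with exon length the median of the small nucleolar RNAs was -0.04. Whether reads outside genes or length play a part in the single calls was not tested.

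Of 7 protein-coding mitochondrial genes tested, 3 were lower with siRNA 2 (42.9% beside 2.74%), with a median of -0.14. mt-Co1, a subunit of cytochrome oxidase, was lower at -0.16, mt-Nd1 at -0.16 and mt-Nd4 at -0.18, and none of the 3 calls held with each library left out in turn: all 3 were lost without siRNA 2 replicate 2, with edgeR adjusted p between 0.0588 and 0.0899. Replication-dependent histone genes, of which 58 were tested, had 10 lower calls (17.2% beside 2.74%), 2 higher calls (3.45% beside 4.18%) and a median of -0.12. Of the 12 calls 4 held with each library left out in turn, and the lower calls lost in at least 1 case were Hist1h1c, Hist1h2ab, Hist1h2bb, Hist1h2be, Hist1h3i and Hist1h4i. The 2 higher ones, Hist1h2ba and Hist1h2aa, are testis histones, at 0.43 and 0.41, and both lost their call without siRNA 2 replicate 2, with edgeR adjusted p of 0.0625 and 0.0537. Hist1h2ba was at 15.3, 17.9, 16.3 and 14.4 CPM with siRNA 2 and at 10.2, 13.3, 12.7 and 11.1 CPM with siRNA 1. Histone genes are near-identical copies, so their single values are uncertain for the reason given for other multigene families.

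The gene with the lowest p of all was Snhg11, a host of small nucleolar RNAs. Snhg11 is known as a noncoding RNA, but the annotation lists a coding transcript for it, whose 3′ UTR was the one searched for seed matches above. It stood at 125, 117, 131 and 113 CPM with siRNA 2 against 70.2, 74.0, 65.8 and 63.6 CPM with siRNA 1, and the control, at 55.7 to 67.2 CPM, lay with siRNA 1 (edgeR adjusted p = 4.43e-13). It was the only called gene of 16 snoRNA host genes (6.25% beside 6.92% of all genes), whose median was -0.08. Mtfr1l, Mcam, Kif5c and Igfbp5, further genes with the lowest p on the lower side, had log2 fold changes of -0.57, -0.56, -0.51 and -0.79. With siRNA 2, Mtfr1l and Igfbp5 lay below the control, at -0.62 and -0.61 as log2 ratios to the control mean, against -0.06 and 0.15 with siRNA 1. Mcam and Kif5c lay on opposite sides of the control, at 0.36 and 0.29 with siRNA 1 and at -0.20 and -0.21 with siRNA 2.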

How the data were processed

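Total RNA-seq libraries of E14 cells were compared, 4 per CMTR1 siRNA. The authors deposited 1 table of raw counts per gene and library. The submitters' processing notes name FastQC, cutadapt, STAR, Picard, featureCounts and deepTools, with builds GRCm38 and mm10 and no versions. Rows that name no gene (0.734 to 0.905 reads outside genes per counted read in the 10 libraries that list them) were left out of library sizes and tests. Of 54838 gene identifiers, 54723 matched GENCODE M21.

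Genes above 1 CPM in at least 4 of 11 libraries were tested with edgeR 4.0.16 (R 4.3.3), quasi-likelihood, on the 8 libraries, with total counts as library sizes. Adjusted p-values are Benjamini-Hochberg over all genes, and intervals are the log2 fold change ± 1.96 SE. The fit was tested on simulated data. Lists are described by counts and medians only, with no test. Ratios to the control use mean CPM + 0.5. Genes named were the 12 higher and 12 lower with the lowest p among called genes with non-overlapping libraries, a mean of at least 2 log2 CPM and a symbol that is not provisional, plus Cmtr1 and up to 4 called members per list with the lowest p, or the highest and lowest member where none was called. Other genes named were chosen after their values were seen. The comparison, its gene lists and the seed words were chosen with earlier results of these data known. Alternatives were TMM factors, DESeq2 1.42.0, edgeR's exact test, other filters, a fit with all 11 libraries, a replicate block, leaving out each library, a fold threshold of 1.5, library sizes without Gm26917, removal of the exon-length trend (lowess, span 0.3) and, added after seeing the data, leaving out siRNA 2 replicates 1 and 2 together. Samples sharing a replicate number correlated between -0.08 and 0.07 in their deviations from the group means, so numbers were not taken as pairs. Whether the counting used strand is not given in the sources used here, so overlapping and antisense genes cannot be told apart.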

Additional observations from a re-analysis of the deposited data

Results flagged for a closer look

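In 3 of 146 groups of 4 libraries examined, 1 library stood apart from the other 3 by Dixon's criterion, which chance would meet in about 1 group of 20. All 3 were germline genes with siRNA 2. Fkbp6 was at 42.9 CPM in replicate 1 against 38.9 to 39.4 CPM in the other 3. Taf7l was at 13.9 CPM in replicate 3 against 15.4 to 15.6 CPM. Ddx4 was at 15.6 CPM in the same replicate 3 against 19.02 to 19.3 CPM. In each case the library that stood apart was still above all 4 libraries of siRNA 1.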

How the results depend on the processing

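Counts of genes called between siRNA 2 and siRNA 1 (1113), called higher (672) and called lower (441) stayed within 1.5 times under 12 of 18 alternatives each. DESeq2 called 643 genes, 373 higher and 270 lower, of which 640 were among the 1113 with the same sign. A fold of at least 1.5 in addition left 199, 158 higher and 41 lower. Leaving out siRNA 2 replicates 1 and 2 together left 545, 345 higher and 200 lower. With 1 library left out in turn the counts ran from 639 to 1329 in all, from 414 to 790 higher and from 218 to 539 lower. The fit with the replicate block called 971 genes, and the replicate numbers share a number only, since same-numbered libraries correlated between -0.08 and 0.07. TMM factors gave 1110 calls, with 623 higher and 487 lower.

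Of the list medians, that of the germline genes was 0.49 without siRNA 2 replicates 1 and 2 and between 0.53 and 0.61 with 1 library left out, that of the replication-dependent histones was -0.19 without those replicates, and that of the small nucleolar RNAs was -0.043 after removal of the length trend. The 24 genes named for the lowest p kept their call and sign in each of 17 refits, and Cmtr1 kept its sign and was called in none. The share of higher genes with the siRNA 1 seed match ranged from 27.7% to 35.0%, and that of lower genes with the siRNA 2 match from 24.1% to 37.0%. Depth limits genes near 1 CPM, where a library holds under 10 reads, and intervals cover the spread between libraries only.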

Other observations

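Of 527 tested X-linked genes 42 were higher with siRNA 2 (7.97% beside 4.18% of all genes) and 12 lower (2.28% beside 2.74%), with a median of 0.03. Among them were the germline genes Taf7l, Scml2, Rhox13 and Tex11, of which Tex11 lost its call without siRNA 1 replicate 1 or 2 or siRNA 2 replicate 1 or 4 (edgeR adjusted p up to 0.245). The noncoding RNAs Xist and its antisense partner Tsix, which act in X inactivation, were both higher with siRNA 2, by 0.50 and 0.26, with both calls lost without siRNA 2 replicate 4 (edgeR adjusted p of 0.0671 and 0.0576). Whether the counting used strand is not known, so the reads of this overlapping pair cannot be told apart. On chromosomes 12 and 17 the shares called higher were 2.84% and 2.33%. These shares were not tested against each other.

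Krüppel-type zinc finger genes, many of which silence transposons, had 13 higher (3.64% beside 4.18% of all genes) and 4 lower calls of 357. Of the 13, Zfp980, Zfp981, Zfp985 and Zfp990 lie near each other on chromosome 4, where related copies may share reads. Small RNA silencing genes had 3 calls of 17 (17.6% beside 6.92% of all genes): besides Ago1, the Argonaute partner Tnrc6c was lower with siRNA 2 (-0.24), with 2 siRNA 2 seed matches but siRNA 2 libraries at 170 to 180 CPM beside a control at 175 to 186 CPM, and Lin28a was higher by 0.15, a call lost without siRNA 1 replicate 1, 2 or 4 or siRNA 2 replicate 1 or 2 (edgeR adjusted p up to 0.142). Rbm3, a cold-inducible RNA-binding protein, lay below the control with both siRNAs, at 195 to 215 CPM with siRNA 1, 163 to 179 CPM with siRNA 2 and 229 to 247 CPM in the control.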
